A study of Homo sapiens with 12 samples.

Results

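Keratins are the intermediate filament proteins of epithelial cells. Each filament is built from a type I and a type II keratin, so that the genes are used in pairs. In stratified squamous epithelium, KRT5 and KRT14 form the filaments of the basal layer, and KRT15 is a further type I keratin of basal cells. KRT6A, KRT6B, KRT16 and KRT17 are the stress keratins, which epidermis switches on after wounding and which squamous carcinomas often keep on. KRT75 is a type II keratin of the hair follicle and nail bed. KRT8 and KRT18 are the pair of simple, single-layered epithelia and are scarce in normal stratified epithelium. These 10 genes were taken by symbol from the 60649 gene IDs of the count tables. All 10 had a row in both tables, and all 10 passed the filter on low counts in every comparison.

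Messenger RNA was sequenced in 12 libraries from xenograft tumours of Cal33, a human line from a head and neck squamous carcinoma. TEAD proteins are the DNA-binding partners of the co-activators YAP and TAZ, and the study set 2 TEAD inhibitors against their own controls. In the smTEADi group, 3 tumours were treated with SW-682, and 3 tumours given Vehicle were their controls. In the pTEADi group, 3 tumours had pTEADi and are labelled DOX+, and the 3 Control tumours are labelled DOX-, where DOX is the usual short form of doxycycline, the inducer of gene switches. An effect of DOX itself cannot be told apart from that of pTEADi. Dose, time and host animal are not in the labels, nor whether Control tumours carry the pTEADi construct. Nor is it said that tumours of a group grew in different animals, and p-values then cover only the spread between these samples.

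Libraries held 13576494 to 15433679 expected counts, and mitochondrially encoded genes took 3.64% to 5.99% of them. Among 10 squamous markers, TP63 was at 229 to 357 CPM (counts scaled to library size by TMM and a fixed total). DSG3 was at 530 to 1087 CPM, and the lowest of the list were SOX2 at 22.3 to 54.6 CPM and EPCAM at 8.25 to 24.4 CPM. Of the markers of host cell types, COL3A1, KDR, AIF1, ADIPOQ, CKM and DES had 0 counts in every library, whereas COL1A1 was at 69.4 to 133 CPM, VWF at 12.7 to 64.1 CPM, FABP4 at 10.1 to 63.1 CPM and CD68 at 5.07 to 37.1 CPM. The YAP/TAZ target CCN1 fell with both inhibitors, to 12.5 ± 3.54 CPM with smTEADi against 35.9 ± 3.602 CPM with Vehicle, and to 23.8 ± 6.77 CPM with pTEADi against 63.7 ± 17.3 CPM in Control (SD, n = 3 each). On the first principal component of its experiment, the smTEADi libraries 1 to 3 scored -58.1, -15.8 and -11.7 and the Vehicle libraries 35.1, 8.08 and 42.4, so that smTEADi 1 and Vehicle 2 stood apart within their groups.

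The 10 genes sit in 2 clusters of the genome (GRCh38). On chromosome 17, all on the minus strand, lie KRT15 (chr17:41513745-41522529), KRT14 (chr17:41582279-41586895), KRT16 (chr17:41609778-41615899) and KRT17 (chr17:41619442-41624842), which encode type I keratins. On chromosome 12, also on the minus strand, lie KRT75 (chr12:52424070-52434371), KRT6B (chr12:52446651-52452146), KRT6A (chr12:52487176-52493257) and KRT5 (chr12:52514575-52520530). The gene pair KRT8 (chr12:52897187-52949954, minus strand) and KRT18 (chr12:52948871-52952906, plus strand) follows 376656 bases further on, and KRT18 is the type I gene of this cluster. The annotated spans of KRT8 and KRT18 overlap by 1084 bases on opposite strands, and since no source gives the strand setting, reads from that stretch cannot be assigned to either.

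KRT75 passed the test in both comparisons below and KRT5, a type II gene of the same cluster, in neither, so their promoter windows are shown. RefSeq sequences (GRCh38.p14, minus strand, 250 bases before to 50 after the gene's start) were on hand for 3 of the 10 members, KRT5, KRT75 and KRT8. The KRT8 window belongs to a start 21393 bases upstream of that of its main (MANE Select) transcript and is not printed. Capitals mark GGAATG, the core of the TEAD motif. Both strands were also searched for TGANTCA, the AP-1 motif, and TATAAA, the TATA box. The windows are chr12:52434322-52434621 for KRT75 and chr12:52520345-52520644 for KRT5.
KRT75: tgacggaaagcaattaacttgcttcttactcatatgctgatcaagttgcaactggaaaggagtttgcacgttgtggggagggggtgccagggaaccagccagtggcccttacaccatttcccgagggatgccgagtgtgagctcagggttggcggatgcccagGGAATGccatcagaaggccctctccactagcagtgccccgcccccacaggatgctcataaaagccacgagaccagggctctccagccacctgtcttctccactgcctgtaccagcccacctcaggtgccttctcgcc
KRT5: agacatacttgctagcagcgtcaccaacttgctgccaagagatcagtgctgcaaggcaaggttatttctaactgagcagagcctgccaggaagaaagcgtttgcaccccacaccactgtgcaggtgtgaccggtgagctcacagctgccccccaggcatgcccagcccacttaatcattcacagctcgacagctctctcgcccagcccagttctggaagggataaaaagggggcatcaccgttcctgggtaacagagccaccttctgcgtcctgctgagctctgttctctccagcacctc
The KRT75 window has GGAATG once, at base 164 of 300, which is 87 bases before the start. The KRT5 window has it on neither strand. Neither window has TGANTCA or TATAAA, and GGAATG is found in 14% of 35116 promoter windows of this length, TGANTCA in 7.71% and TATAAA in 11.5%. The unprinted window of KRT8, which also passed in both comparisons, has GGAATG once, 17 bases after its upstream start. Whether these motifs bear on the changes was not tested.

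The basal and stress keratins were among the most abundant messages of these tumours. By mean CPM over the 12 libraries, KRT5 ranked first of all genes, KRT14 the third, KRT6A the fourth and KRT16 the seventh, whereas KRT75, KRT8 and KRT18 averaged 93.8, 61.4 and 98.4 CPM. Per length (RPKM on the summed exon length), KRT14 had the highest mean in every group, at 6119 with smTEADi and 7753 with Vehicle, and at 11019 with pTEADi and 9305 in Control. Its libraries overlapped those of KRT6A with smTEADi and Vehicle, and those of KRT5 with smTEADi. KRT6A, KRT5 and KRT16 followed at means of 3051 to 5805 RPKM, and the libraries of KRT6A and KRT5 overlapped in all 4 groups. KRT6B averaged 2009 to 2664 RPKM and KRT15 584 to 752 RPKM. KRT17 was the sixth with smTEADi (879 RPKM), Vehicle (1706 RPKM) and pTEADi (1389 RPKM), and the fifth in Control (3439 RPKM). Its libraries overlapped those of KRT15 with smTEADi, those of KRT6B with Vehicle, and those of KRT16 and KRT6B in Control. A wide step separated these 7 from KRT75 (group means of 14.7 to 82.1 RPKM), KRT18 (21.5 to 49.95 RPKM) and KRT8, the lowest in all groups (4.89 to 14.8 RPKM). KRT75 was below KRT18 with smTEADi, where their libraries overlapped, and with pTEADi, but above it with Vehicle and in Control.

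**Figure D1:**
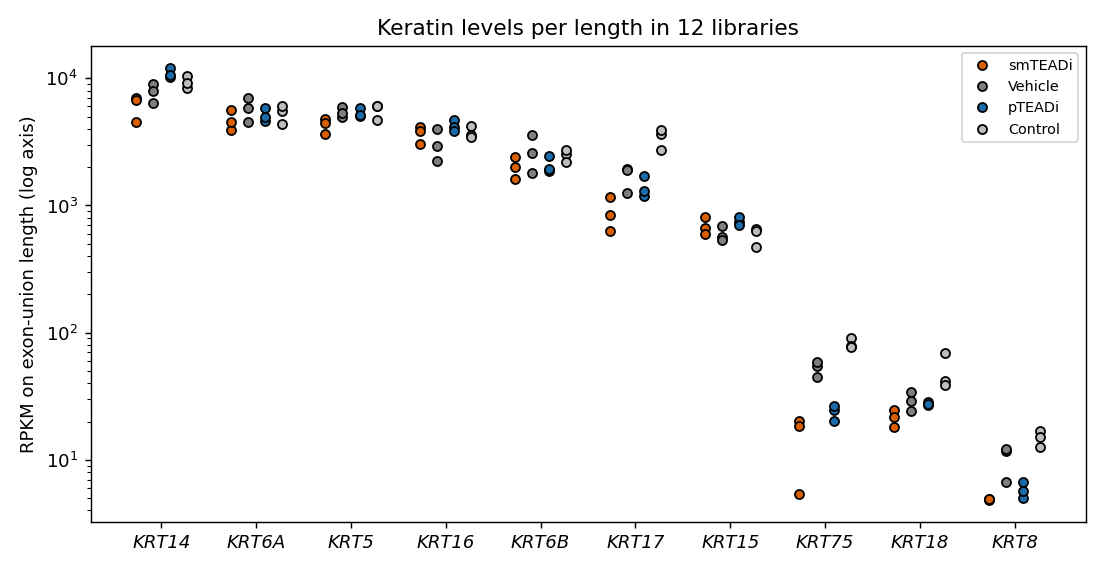
RPKM of the 10 keratin genes (log axis, exon-union length), ordered by their mean over 12 libraries; each point is 1 library and colours are the 4 groups. KRT14 had the highest mean in every group, and KRT75, KRT18 and KRT8 lay far below the other 7 genes.

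In the smTEADi comparison, 2 of the 10 keratins passed an adjusted p of 0.05 in edgeR's quasi-likelihood test, KRT75 and KRT8, and both fell. Of all 14829 genes tested, 5.5% passed, with 3.48% falling and 2.02% rising. The basal keratins KRT5, KRT14 and KRT15 and the stress keratins KRT6A, KRT6B, KRT16 and KRT17 did not pass, nor did KRT18. The median log2 fold change of the 10 genes was -0.37, beside 0.01 for all genes tested.

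KRT75 had 11.6, 43.9 and 39.99 CPM in the smTEADi libraries, against 96.7, 118 and 127 CPM in the Vehicle libraries. The groups did not overlap, and smTEADi 1 was the lowest. Its log2 fold change was -1.84 ± 0.38 (SE, adjusted p = 0.0388), or 28.0% of the Vehicle level, and it was -1.44 without smTEADi 1 (adjusted p = 0.00978). KRT8, the type II keratin of simple epithelium, had 33.3, 33.8 and 33.9 CPM with smTEADi, against 80.1, 45.8 and 83.7 CPM with Vehicle. The smTEADi libraries were nearly alike, whereas Vehicle 2 lay well below Vehicle 1 and 3. The log2 fold change of KRT8 was -1.05 ± 0.20 (adjusted p = 0.0365). Both calls sat close to the threshold, as did every call in this comparison. The smallest adjusted p of all 14829 genes tested was 0.0365. The call of KRT75 was lost without smTEADi 3 (adjusted p = 0.0519), Vehicle 1 (0.134) or Vehicle 3 (0.184). That of KRT8 was lost without smTEADi 2 (0.0559), smTEADi 3 (0.0528), Vehicle 1 (0.135) or Vehicle 3 (0.184). The log2 fold change stayed between -2.14 and -1.44 for KRT75 and between -1.28 and -0.91 for KRT8 in these fits. Calls over all genes, 816 with all libraries, were 335 without smTEADi 1, 402 without smTEADi 2, 1622 without Vehicle 2, and 0 without smTEADi 3, Vehicle 1 or Vehicle 3.

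KRT17, a type I stress keratin, had 1872, 3496 and 2532 CPM with smTEADi, against 3772, 5827 and 5732 CPM with Vehicle. The groups did not overlap, but its log2 fold change of -0.96 ± 0.25 missed the threshold (adjusted p = 0.0529). KRT17 passed in 1 of 6 fits that left out 1 library, that without smTEADi 2 (0.0468). It also passed with DESeq2 (0.000401), without a low-count filter (0.000499) and with a spread shared by all 12 libraries (0.0163). With replicate numbers as a block it did not pass (0.0828). KRT18, the partner of KRT8, had 75.8, 66.5 and 55.3 CPM with smTEADi, against 89.8, 74.9 and 104 CPM with Vehicle. The highest smTEADi library lay just above the lowest Vehicle library, and the log2 fold change of -0.45 ± 0.15 did not pass (adjusted p = 0.099), although it did without Vehicle 2 (0.0464). The 4 genes KRT5, KRT17, KRT75 and KRT8 were lower in every smTEADi library than in any Vehicle library, as were 17.3% of all genes tested, and groups of 33% of genes did not overlap in one direction or the other.

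Among basal keratins, KRT5 averaged 17681 ± 2401 CPM with smTEADi and 22269 ± 1991 CPM with Vehicle (SD, n = 3 each), a log2 fold change of -0.33 ± 0.17 (adjusted p = 0.234). KRT14 averaged 13798 ± 3092 CPM with smTEADi and 17483 ± 2820 CPM with Vehicle, with overlapping libraries (-0.34 ± 0.21). The 95% intervals of both changes, -0.71 to 0.05 and -0.81 to 0.13, reach from a drop of over 1.5-fold to a slight rise. KRT15 averaged 4146 ± 671 CPM with smTEADi and 3554 ± 478 CPM with Vehicle (0.22 ± 0.16).

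Of the stress keratins, KRT6A had 11381 to 16623 CPM with smTEADi and 13317 to 20493 CPM with Vehicle (-0.31 ± 0.21). KRT6B had 3742 to 5544 CPM with smTEADi and 4151 to 8315 CPM with Vehicle (-0.41 ± 0.25). KRT16 differed in sign from both, at 7561 to 10206 CPM with smTEADi and 5541 to 9837 CPM with Vehicle (0.27 ± 0.22). None of the 3 passed (adjusted p = 0.37, 0.315 and 0.457 in the same order), and their libraries overlapped.

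**Figure D2:**
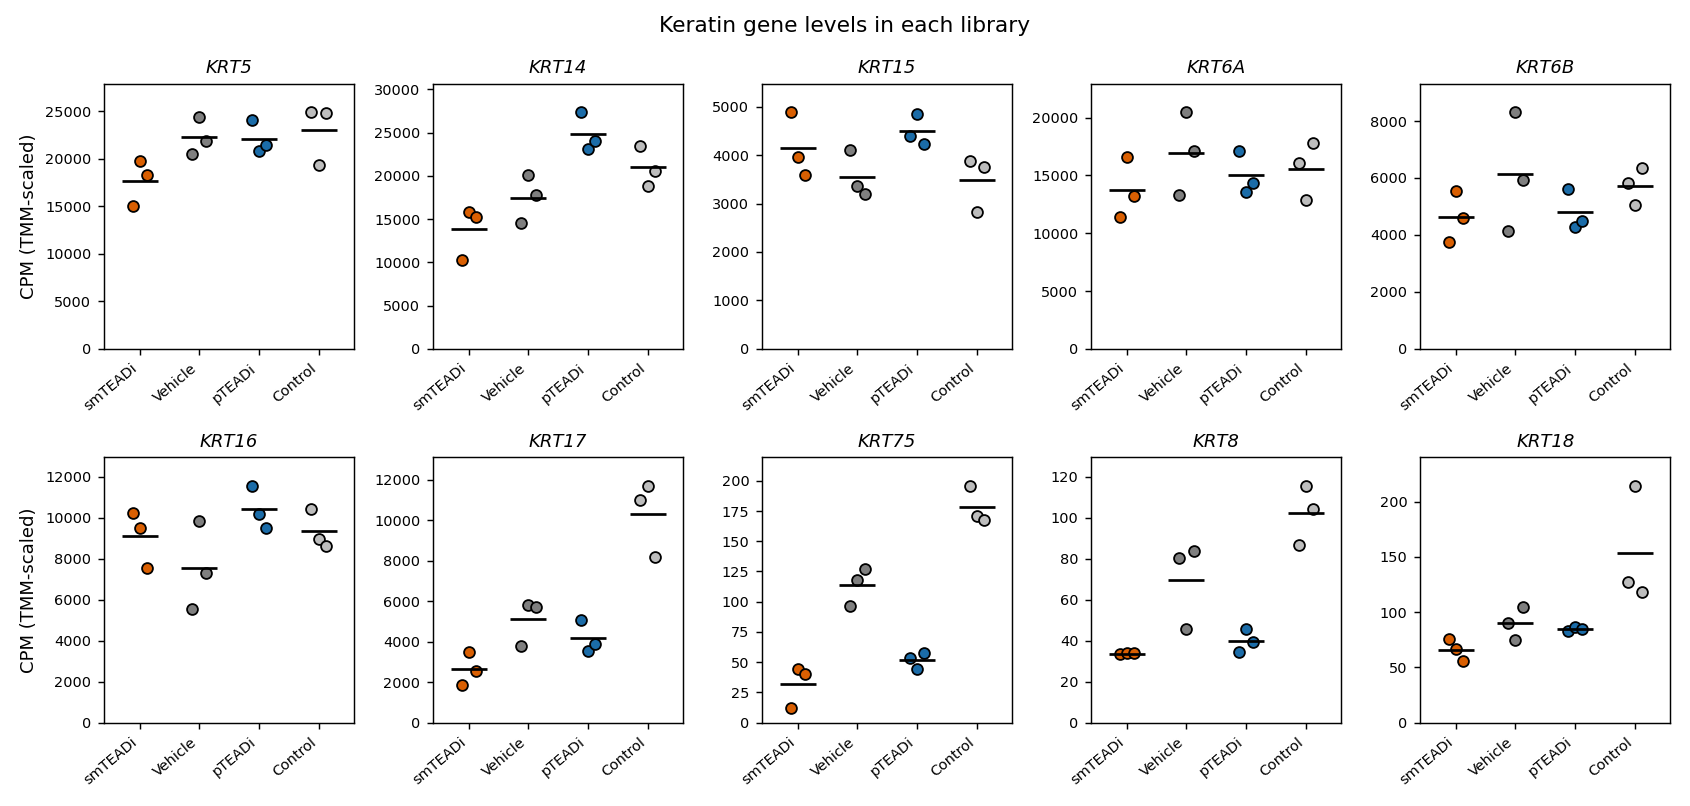
TMM-scaled CPM of each keratin gene in the 12 libraries, with an axis from 0 in each panel; points are libraries in replicate order and lines are group means. KRT17, KRT75 and KRT8 were lower in every inhibitor library than in any library of its own control group, and so was KRT18 with pTEADi.

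In the pTEADi comparison, 4 of the 10 keratins fell and none rose: KRT17, KRT75, KRT8 and KRT18. Of all 14705 genes tested, 26.3% passed, with 13.6% falling and 12.7% rising, so that calls were far more common than with smTEADi. The basal pair KRT5 and KRT14 and the stress keratins KRT6A, KRT6B and KRT16 again did not pass, nor did KRT15. The median log2 fold change of the 10 genes was -0.16, beside -0.00067 for all genes tested.

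KRT17 had 5066, 3536 and 3878 CPM with pTEADi, against 11010, 11708 and 8196 CPM in Control. Every pTEADi library was well below every Control library. The log2 fold change was -1.31 ± 0.17 (adjusted p = 0.000248), or 40.3% of the Control level. KRT75 had 53.1, 44.001 and 57.2 CPM with pTEADi, against 196, 171 and 167 CPM in Control. This was the largest change of the 10, at -1.79 ± 0.11 (adjusted p = 3.47e-06), and the spread within each group was small beside it.

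KRT8 had 34.6, 45.7 and 39.4 CPM with pTEADi, against 86.6, 116 and 104 CPM in Control, and the groups lay far apart. Its log2 fold change was -1.36 ± 0.13 (adjusted p = 4.28e-05). KRT18 had 83.0, 86.7 and 84.5 CPM with pTEADi, against 127, 214 and 118 CPM in Control. The pTEADi libraries were nearly alike and Control 2 stood above the other two. The log2 fold change of -0.86 ± 0.18 (adjusted p = 0.00477) was -0.54 without Control 2 (adjusted p = 0.000349). The 4 calls passed in all 6 fits that left out 1 library, while calls over all genes, 3864 with all libraries, were 2325 without pTEADi 2 and 2573 without Control 1. All 4 genes were lower in every pTEADi library than in any Control library, as were 21.7% of all genes tested.

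KRT5 averaged 22109 ± 1699 CPM with pTEADi and 23029 ± 3182 CPM in Control (SD, n = 3 each), at a log2 fold change of -0.06 ± 0.14 with a 95% interval of -0.36 to 0.24. KRT6A gave a like result, at 15026 ± 1825 CPM with pTEADi and 15578 ± 2512 CPM in Control (-0.05 ± 0.15, interval -0.38 to 0.27). For both genes the interval leaves out a 2-fold change in either direction. KRT14 averaged 24848 ± 2246 CPM with pTEADi and 20983 ± 2336 CPM in Control (0.24 ± 0.13, adjusted p = 0.208). KRT15 had 4220 to 4857 CPM with pTEADi and 2818 to 3877 CPM in Control (0.36 ± 0.13). Every pTEADi library was above every Control library, and 42% of all genes tested had groups without overlap in one direction or the other. Its adjusted p of 0.0644 missed the threshold, which it passed without Control 3 (0.0263) and with DESeq2 (0.00855). KRT6B (-0.26 ± 0.13) and KRT16 (0.16 ± 0.13) had overlapping libraries and did not pass (adjusted p = 0.18 and 0.397).

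**Figure D3:**
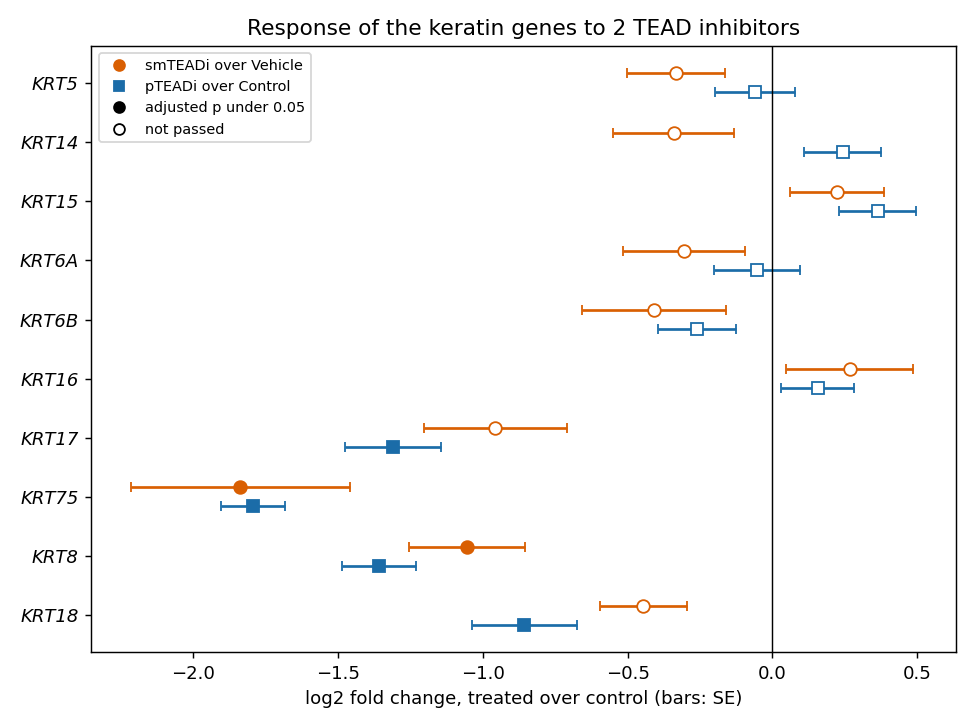
Log2 fold changes of the 10 keratin genes, smTEADi over Vehicle (circles) and pTEADi over Control (squares), with bars of 1 SE; filled symbols passed an adjusted p of 0.05. KRT17, KRT75, KRT8 and KRT18 were negative in both comparisons, and the 6 other genes lay between -0.41 and 0.36.

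The test of the difference between the 2 effects, (pTEADi minus Control) minus (smTEADi minus Vehicle), passed for none of the 10 keratins with edgeR or DESeq2. Over all 15460 genes tested, 0.0129% passed with edgeR, which is 2 genes, and 37 genes passed with DESeq2. An unadjusted p under 0.05 was reached by 1 of the 10 members, KRT14, with a difference of 0.59 ± 0.25 (adjusted p = 0.669). It was also reached by 1103 of all 15460 genes tested. For KRT75 the difference was 0.04 ± 0.43 with a 95% interval of -0.88 to 0.97, and for KRT17 it was -0.35 ± 0.32 with an interval of -1.05 to 0.34. The interval of KRT75 holds differences of nearly 2-fold, and that of KRT17 reaches just beyond 2-fold.

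The ratio of type II to type I keratin within a library does not depend on how libraries are scaled. KRT6B over KRT17, both stress keratins, had log2 ratios of RPKM of 1.38, 1.05 and 1.24 with smTEADi, against 0.52, 0.89 and 0.43 with Vehicle, and of 0.53, 0.66 and 0.59 with pTEADi, against -0.54, -0.84 and 0.01 in Control. It was higher in every treated library than in any of its controls. KRT8 over KRT18 was -2.43, -2.09 and -2.27 with pTEADi, against -1.72, -2.05 and -1.35 in Control, without overlap. It was -2.35, -2.14 and -1.87 with smTEADi, against -1.33, -1.88 and -1.48 with Vehicle, where smTEADi 3 and Vehicle 2 overlapped.

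For the basal pair, KRT5 over KRT14 was -0.32, -0.56 and -0.62 with smTEADi, against -0.38, -0.60 and -0.57 with Vehicle, which overlapped. It was -1.06, -1.02 and -1.04 with pTEADi, against -0.79, -0.84 and -0.60 in Control, which did not. KRT6A over KRT16 averaged 0.35 ± 0.37 with smTEADi and 0.95 ± 0.11 with Vehicle, and 0.29 ± 0.10 with pTEADi and 0.49 ± 0.28 in Control (SD, n = 3 each). The summed RPKM of the 5 type II members over that of the 5 type I members averaged -0.06 ± 0.08 with smTEADi and 0.08 ± 0.03 with Vehicle, and -0.47 ± 0.03 with pTEADi and -0.35 ± 0.23 in Control. For both measures every smTEADi library was below every Vehicle library, while pTEADi and Control overlapped. These ratios were described and not tested, since the genes were chosen with results known.

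**Figure D4:**
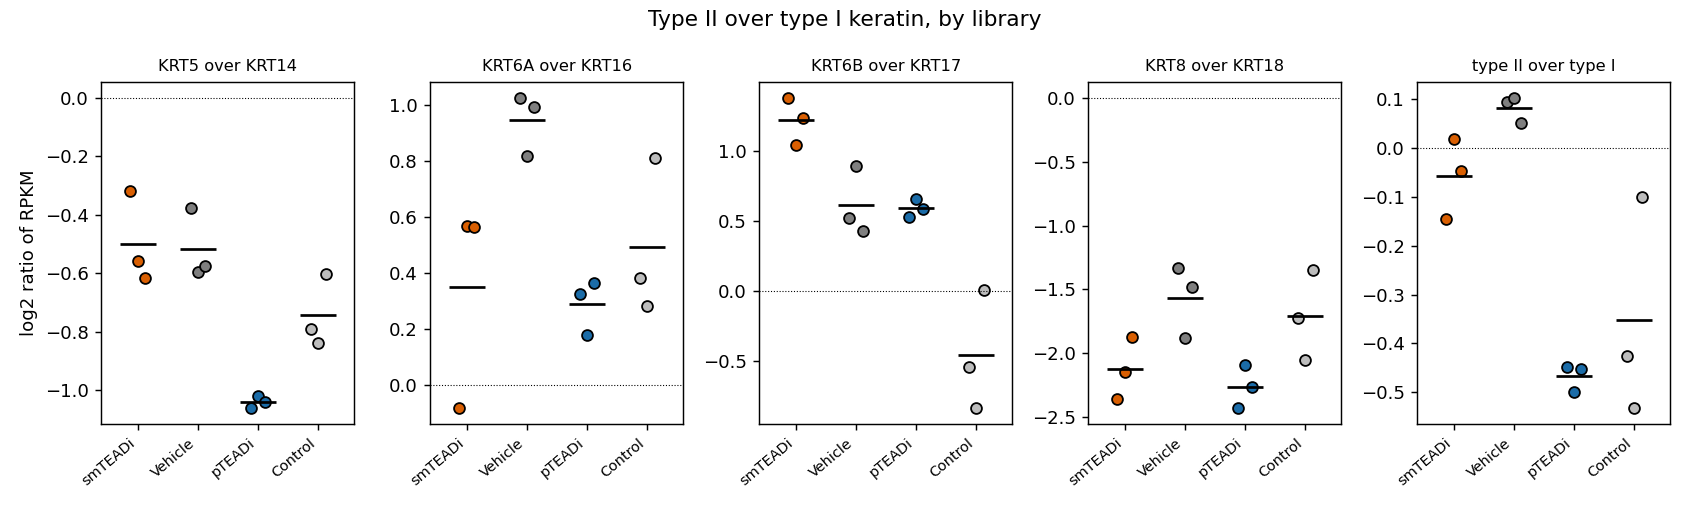
Log2 ratio of RPKM of type II over type I keratin for 4 pairs and for the sums of the 10 genes, by library; lines are group means and the dotted line marks equal levels. KRT6B over KRT17 was higher with either inhibitor than in its controls, while KRT5 over KRT14 overlapped between smTEADi and Vehicle.

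Taken as a share of the whole library, the 10 keratins held 5.43%, 7.38% and 6.53% of counts with smTEADi, against 7.10%, 9.07% and 8.27% with Vehicle. They held 9.17%, 7.77% and 8.11% with pTEADi, against 9.71%, 8.17% and 9.25% in Control, and in both comparisons the groups overlapped. The other keratin genes, by contrast, did not overlap, with 8.90%, 7.02% and 7.54% of counts with smTEADi against 3.77%, 5.39% and 3.18% with Vehicle, and 4.47%, 5.598% and 4.64% with pTEADi against 1.79%, 1.29% and 2.50% in Control. Of all keratin counts, the 10 genes therefore made up 45.2% ± 6.75 with smTEADi and 66.8% ± 4.91 with Vehicle, and 63.0% ± 4.58 with pTEADi and 83.2% ± 3.95 in Control (SD, n = 3 each). These are shares of reads, not of molecules. In bulk tumours, fewer cells of a type and less RNA per cell cannot be told apart.

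**Figure D5:**
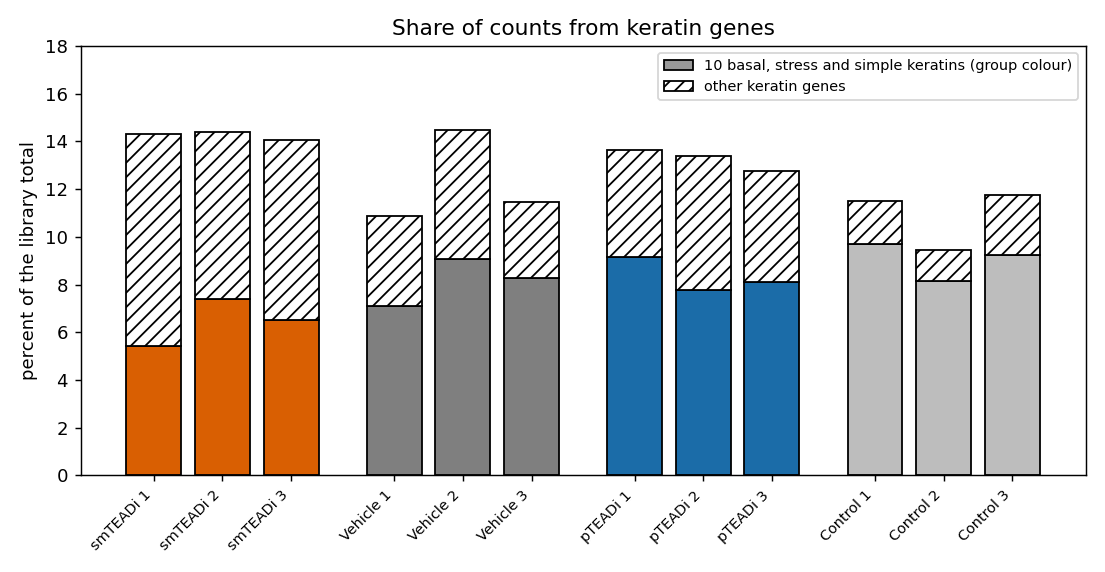
Percent of each library's total expected counts from the 10 keratin genes (solid, in the group's colour) and from all other keratin genes (hatched). The hatched part was larger in every smTEADi and pTEADi library than in any library of its own control group.

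In the wider keratin family, 20 of 45 further genes could be tested with smTEADi, of which 6 rose and none fell, at a median of 1.09, where 2.02% of all genes tested rose. The 6 genes were KRT4 (1.23 ± 0.22) and KRT13 (0.91 ± 0.22), the pair of mucosal suprabasal cells, KRT9 (2.40 ± 0.39), a keratin of palm and sole epidermis, KRT77 (1.16 ± 0.26), KRT79 (1.66 ± 0.41) and the hair keratin KRT33B (2.34 ± 0.57, at 1.56 CPM with smTEADi and 0.302 CPM with Vehicle). The count was 2 without smTEADi 1 or smTEADi 2, 14 without Vehicle 2, and 0 without smTEADi 3, Vehicle 1 or Vehicle 3. With pTEADi, 12 of 19 rose and 1 fell, at a median of 1.36, where 12.7% of all genes tested rose. KRT79 (1.86 ± 0.11), KRT78 (1.98 ± 0.21), KRT23 (1.97 ± 0.22), KRT77 (2.33 ± 0.27), KRT4 (1.98 ± 0.24) and KRT3 (1.76 ± 0.24), a keratin of the cornea, had the smallest p-values. The gene that fell was KRT6C, named here after its values were seen, a close copy of KRT6A and KRT6B (-0.86 ± 0.21, adjusted p = 0.00922). RSEM divides reads shared by such copies, and counts of KRT6A, KRT6B and KRT5 were fractional in 12 of 12 libraries, while those of KRT15 and KRT17 were whole in all. Summing KRT6A, KRT6B and KRT6C gave log2 fold changes of -0.34 with smTEADi and -0.14 with pTEADi, neither of which passed (adjusted p = 0.369 and 0.55). The many processed copies of KRT8 held 6.52% to 21.4% of the summed reads of KRT8 and its copies, and with them the changes of KRT8 were -0.87 and -1.16 in the same order (adjusted p = 0.0391 and 7.37e-05).

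Of 21 basal keratinocyte and hemidesmosome genes tested, 5 fell with smTEADi and none rose, where 3.48% of all genes tested fell. Those that did not pass included the hemidesmosome genes ITGA6, ITGB4, COL17A1, PLEC and DST, named beyond the genes of smallest p. Of these, ITGB4 came closest (-0.51 ± 0.14, adjusted p = 0.0562). Among those that fell were CDH3, which encodes P-cadherin (-0.67 ± 0.13), the laminin gene LAMA3 (-0.58 ± 0.13), the caveolin gene CAV1 (-0.87 ± 0.21) and the urea cycle gene ASS1 (-0.53 ± 0.11). The integrin gene ITGA3 did not pass (-0.63 ± 0.16, adjusted p = 0.0516), and the list's median was -0.46. The count of 5 was 2 without smTEADi 1, 0 without smTEADi 3, Vehicle 1 or Vehicle 3, and 7 without smTEADi 2 or Vehicle 2. With pTEADi, 12 fell and 1 rose, at a median of -0.35, where 13.6% of all genes tested fell and 12.7% rose. ITGB4 was among those that fell (-0.37 ± 0.10, adjusted p = 0.0184), while ITGA6, COL17A1, PLEC and DST again did not pass. CDH3 (-0.81 ± 0.10), CAV1 (-0.77 ± 0.11), the integrin gene ITGB1 (-0.56 ± 0.11), LAMA3 (-0.48 ± 0.09) and the Notch ligand gene DLL1 (-0.46 ± 0.09) were among those with the smallest p, and the gene that rose was CXCL14 (0.98 ± 0.23), named after its values were seen. TP63, the master regulator of the basal state, named for the same reason, did not pass with smTEADi (-0.28 ± 0.13, adjusted p = 0.189) or with pTEADi (-0.07 ± 0.11, adjusted p = 0.659).

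Of 30 genes for filament partners and keratin regulators, 1 rose and 1 fell with smTEADi, where 5.5% of all genes tested passed. The 2 genes were TCHP, which encodes the keratin-binding protein trichoplein (0.65 ± 0.15), and PKP2, a desmosome plaque gene (-0.81 ± 0.17). The next by p did not pass: CSTA (0.96 ± 0.24, adjusted p = 0.0502), ZNF750 (0.78 ± 0.20, adjusted p = 0.0502), the AP-1 gene FOSL1 (-1.19 ± 0.31, adjusted p = 0.0534) and KLF5 (0.52 ± 0.14, adjusted p = 0.0543). The count of 2 was 14 without Vehicle 2, 1 without smTEADi 2 and 0 without smTEADi 1, smTEADi 3, Vehicle 1 or Vehicle 3. With pTEADi, 10 rose and 2 fell, or 15 and 4 without Control 3, where 26.3% of all genes tested passed with all libraries. Those with the smallest p were CSTA, a cornified envelope gene (1.13 ± 0.12), the transcription factor gene GRHL3 (1.01 ± 0.13), the plakin genes PPL (0.88 ± 0.12) and EVPL (0.82 ± 0.11), which rose, and PKP2 (-1.05 ± 0.13) and FOSL1 (-2.07 ± 0.35), which fell. The list's median was 0.29 with smTEADi and 0.25 with pTEADi.

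Some host marker sums did not overlap between groups. For 6 endothelial markers the sums were 36.3 to 64.3 CPM with smTEADi and 15.9 to 33.2 CPM with Vehicle, and 30.8 to 42.6 CPM with pTEADi and 13.1 to 21.2 CPM in Control. VWF made up nearly all of this, KDR was at 0 and CDH5 had at most 1 count per library. For 5 adipocyte markers the sums were 33.7 to 63.8 CPM with smTEADi and 21.5 to 27.9 CPM with Vehicle, and 11.3 to 16.5 CPM with pTEADi and 11.8 to 19.9 CPM in Control, carried by FABP4, while ADIPOQ, LEP and CIDEC were at 0. The 8 markers of macrophages and leukocytes summed to 35.7 to 55.96 CPM with smTEADi and 34.9 to 44.7 CPM with Vehicle, and to 35.96 to 42.2 CPM with pTEADi and 47.5 to 72.8 CPM in Control. CD68 and CD74 were the highest of these, and PTPRC had at most 1 count per library. The 9 fibroblast markers overlapped in both comparisons, at 78.8 to 139 CPM over all libraries, nearly all of it COL1A1, which lay in the range of KRT8, KRT18 and KRT75. Also overlapping were the 6 muscle markers, at 3.31 to 9.65 CPM, mostly MB. The 10 squamous markers summed to 12055 to 13551 CPM with smTEADi and 9210 to 11852 CPM with Vehicle, and to 9588 to 9966 CPM with pTEADi and 6925 to 8679 CPM in Control. The part of such shifts in the keratin changes was not tested.

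The keratins did not all follow 1 pattern over the 12 libraries. As a description with n = 12 libraries that share 4 groups, Pearson's r of log2 CPM was 0.914 for KRT17 with KRT75, 0.852 for KRT8 with KRT18 and 0.936 for KRT6A with KRT6B, but 0.145 for KRT5 with KRT16. After the group means were subtracted, KRT5 stayed close to KRT14 (r = 0.882) and KRT6A (r = 0.915), and ran against KRT18 (r = -0.774). The r of KRT17 with KRT75 was then 0.700, that of KRT8 with KRT18 0.551 and that of KRT6A with KRT6B 0.953. For the other pairs among KRT17, KRT75, KRT8 and KRT18, r was 0.668 to 0.831 before subtraction and -0.328 to 0.0918 after it. Among 10619 other genes that code for protein and averaged at least 5 CPM, those most like KRT75 were the mitosis genes CENPA (r = 0.980) and NCAPH (0.979) and the matrix gene THBS1 (0.978). Those most like KRT8 were ELF4 (0.973), CERS2 (0.965) and TGIF2 (0.963), those most like KRT5 were LTBP1 (0.930), SDC3 (0.922) and CSPG4 (0.915), and those most like KRT6A were COL17A1 (0.864), LTBP1 (0.841) and DUSP14 (0.811). With group means subtracted, ELF4, CERS2 and TGIF2 were at 0.753, 0.832 and 0.645 with KRT8. The genes named for KRT75, KRT5 and KRT6A were then at 0.856 to 0.947.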

How the data were processed

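Libraries from poly-A RNA of 12 tumours gave read pairs of 150 bp, per the labels. Per the labels and the submitters' processing notes, the authors used STAR 2.7.9a, GRCh38 and Gencode 38, and they deposited unscaled RSEM 1.3.1 expected counts for each gene. The sources used here give neither the strand setting nor whether mouse host reads were separated. Of the values, 6.77% to 7.27% per library were not whole (by more than 0.001) and were rounded for testing. Names, positions and lengths came from Gencode 44 (GRCh38), which matched 60463 of 60649 gene IDs.

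Counts were tested in R 4.3.3 with edgeR 4.0.16 (filterByExpr, minimum count 10, TMM, quasi-likelihood F test, two-sided, Benjamini-Hochberg over all genes tested, threshold 0.05). Each treatment was fitted with its own control, and the difference of effects in 1 fit of 12 libraries. An SE is the log2 fold change divided by the square root of F, and 95% intervals use its degrees of freedom. Levels are CPM scaled by TMM over 12 libraries, and log2 CPM used a prior count of 2. No pair of libraries within a group was a duplicate, with a chi-square per degree of freedom of 7.42 to 34. Pairs across groups were not checked. The members and lists were chosen with earlier results of these data known. All 10 members were named, with up to 6 genes of smallest p per list and comparison, of which 1 is not reported here. Alternatives are given below, among them DESeq2 1.42.0. The fits were tested on simulated data with known changes. Of simulated 2-fold changes, 88% were recovered for smTEADi, 96% for pTEADi and 67% for the difference of effects. False calls were 3.09%, 7.11% and 4.05% of calls in the same order.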

Additional observations from a re-analysis of the deposited data

How the results depend on the processing

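The 4 falls with pTEADi passed under every alternative run: RLE and upper-quartile scaling, scaling without the 10 keratins, no low-count filter, DESeq2, unrounded counts, a threshold of 0.01, a spread shared by all 12 libraries, the replicate block, near-identical copies summed (KRT17, KRT8 and KRT18), and leaving out each library (4 to 5 calls). KRT15 was the fifth call without Control 3, without a low-count filter and with DESeq2. With smTEADi, the 2 calls became 4 without a low-count filter, 3 with DESeq2 or the shared spread, and 0 at a threshold of 0.01. At that threshold, 0% of all genes tested passed with smTEADi and 14.5% with pTEADi. Leaving out single libraries gave 0 to 3. The smTEADi counts of the wider keratin family (0 to 14), basal genes (0 to 7) and filament partners (0 to 14) ranged as widely, and with pTEADi they ranged from 11 to 15, 9 to 13 and 10 to 19. Filament partners gave 4 calls with RLE scaling and 9 with DESeq2 for smTEADi, and basal genes 11 with DESeq2; the cause was not tested. Replicate numbers were not taken as pairs: deviations of same-numbered libraries from their group means correlated at -0.111 to 0.115 with smTEADi and at -0.0661 to 0.00301 with pTEADi. With the replicate block, 0 keratins, 0 of the wider family, 0 basal genes and 0 filament partners passed for smTEADi, as did 0 of all genes, and 4 keratins for pTEADi. With single libraries left out, signs turned only for members that did not pass: with pTEADi, KRT6A (-0.18 without Control 2 to 0.057 without Control 3, and 0.025 without pTEADi 2) and KRT5 (-0.17 without Control 2 to 2.5e-05 without Control 3), and for the difference, KRT75 (-0.35 without smTEADi 1 to 0.35 without smTEADi 2, and -0.04 without Vehicle 3 or pTEADi 3), KRT16 (-0.34 without Vehicle 2 to 0.073 without Vehicle 1) and KRT6B (-0.13 without Vehicle 2 to 0.36 without Vehicle 1). No scaling moved the median of all genes by over 0.1. By the longest transcript in place of summed exons, KRT5 ranked above KRT6A in all groups, and KRT17 above KRT6B with Vehicle and pTEADi too. KRT14 kept the highest mean in each group on that scale, but KRT5 was above it in smTEADi 1 and Vehicle 1. Over all genes, smTEADi calls were 816, against 1868 with DESeq2, 2101 without a low-count filter and 2303 with the shared spread, and calls for the difference were 2, against 37 with DESeq2, 377 without a low-count filter and 0 with the replicate block. Counts were lowest for the scarce members, with 158 to 2805 per library for KRT75 and 451 to 1611 for KRT8. What depth added to the spread of these genes was not tested.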
